A study of Arabidopsis thaliana with 8 samples.

Results

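The 6 genes described here are outputs and regulators of jasmonate and ethylene signalling in Arabidopsis: the plant defensins PDF1.2 and PDF1.2b, the thionin THI2.1, the transcription factor EIN3 and the transcription factors MYC3 and MYC4. They were chosen by name with earlier results of these data known, so counts over them are not those of an unselected set. Each was measured through 1 probe set (a set of short probes for 1 transcript) of the 22746 tested on the ATH1 array. The study compared leaves of Col-0 plants (WT) with leaves of Col-0 plants overexpressing VaNAC26, a NAC transcription factor gene of the grapevine Vitis amurensis, under the CaMV 35S promoter, which is active in most tissues (OE). Plants had grown in soil for 21 d at 22 °C with 16 h of light a day before watering stopped, and leaves were taken either just before drought, called WT 0d and OE 0d, or 5 d later without water, called WT 5d and OE 5d, with 2 arrays in each of the 4 groups. Each OE sample was a pool of equal amounts of leaf from 3 transgenic lines, which the drought assays used in the T4 generation, so differences between lines were not measured. No plants were kept watered until 5 d, and drought, the age of the plants and the day of harvest cannot be told apart in a difference between 5 d and 0 d. The series was made to ask how VaNAC26 changes leaf gene expression with and without drought, in relation to jasmonic acid.

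Jasmonate signalling in Arabidopsis is commonly described as having a pair of output branches. When jasmonate and ethylene act together, the ethylene transcription factor EIN3 and the ERF-type factors ERF1 and ORA59 turn on small antifungal peptides, among which PDF1.2 is the standard reporter gene. When jasmonate acts without ethylene, the related bHLH transcription factors MYC2, MYC3 and MYC4 drive wound- and herbivore-type genes, and MYC2 and EIN3 are known to restrain each other.

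The RNA came from whole leaves, so fewer cells expressing a gene and less RNA per cell cannot be told apart. Among 15 markers of cell types, 2 had a named probe set. RCA, the Rubisco activase of leaf mesophyll, had intensities of 6992 to 9858 on the 8 arrays. PYK10, a beta-glucosidase gene known mainly from roots, had intensities of 139 and 101.4 in WT 0d, 61.7 and 40.5 in OE 0d, 11.3 and 10.4 in WT 5d, and 25.2 and 13.6 in OE 5d. PYK10 was therefore highest in WT 0d, the group in which PDF1.2 was lowest, and between 0 d and 5 d in WT plants it fell by 3.45 on the log2 scale (limma, adjusted p = 0.000650). The part of other cell types in the results below was not tested. The array medians lay between 36.2 and 38.2, and the OE 5d pair stood apart, since its replicates differed by more than 2-fold on 1294 probe sets against 79 to 143 in the other 3 pairs.

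**Figure D1:**
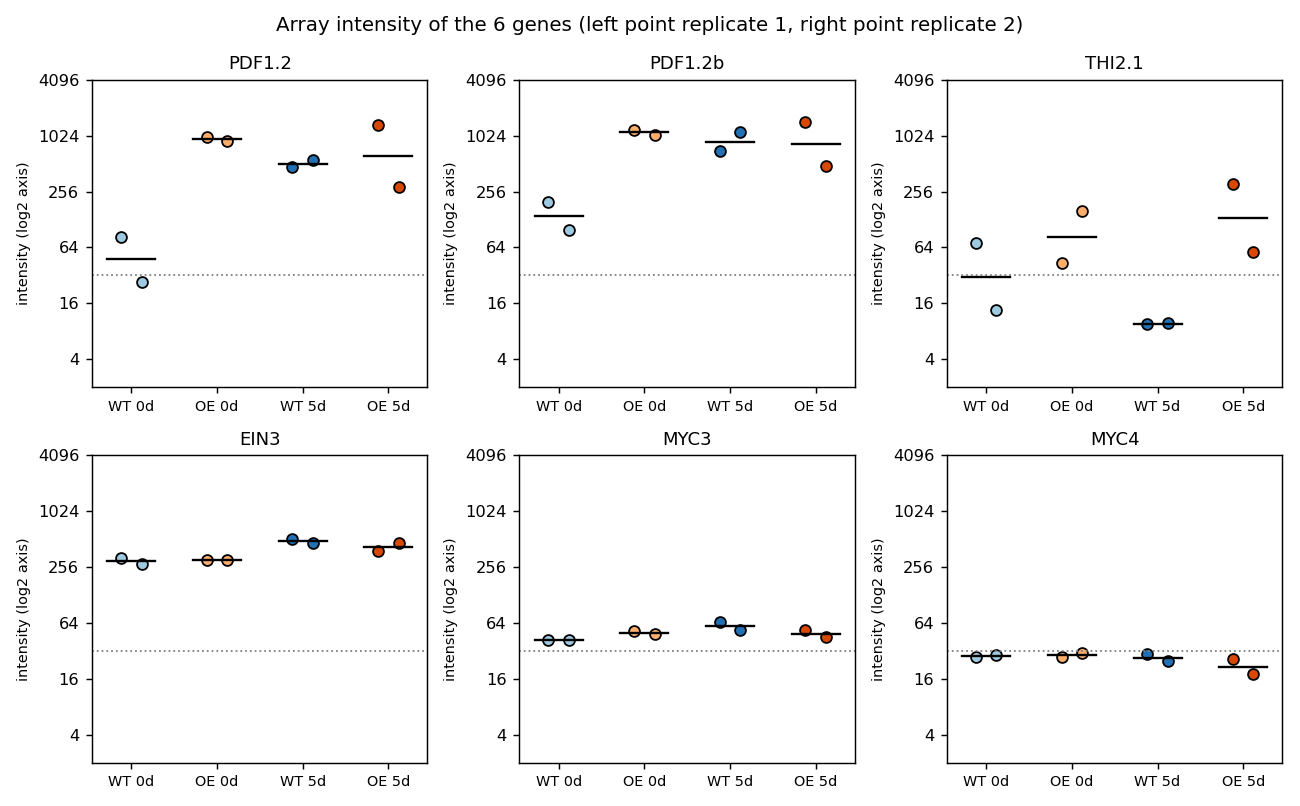
Array intensity (log2 axis) of each of the 6 genes in the 4 groups, with replicate 1 as the left point, replicate 2 as the right point, a bar at their geometric mean and a dotted line at 32, under which a value is called dim here. PDF1.2 ran from 27.4 to 1347 and THI2.1 from 9.54 to 312, while MYC3 stayed between 41.9 and 66.6.

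The defensin genes PDF1.2 and PDF1.2b were low in WT 0d and high in the other 3 groups, and they moved together on all 8 arrays. PDF1.2 (At5g44420, chromosome 5) encodes a small secreted antifungal peptide. Its intensity was 83.1 and 27.4 in WT 0d, 999.8 and 904 in OE 0d, 466 and 556 in WT 5d, and 1347 and 289 in OE 5d. Both WT 0d arrays lay below all 6 others, and the OE 5d arrays lay on either side of both WT 5d and OE 0d arrays. The group means were 55.2 ± 39.4 (SD, n = 2) for WT 0d, 952 ± 67.7 for OE 0d, 511 ± 63.9 for WT 5d and 818 ± 748 for OE 5d.

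In OE 0d, PDF1.2 was 19.9 times as high as in WT 0d, a log2 fold change of 4.32 with a standard error of 0.70 and a 95% confidence interval of 2.70 to 5.93. With the spread estimated from all 8 arrays and p-values adjusted over all probe sets, this difference did not pass the threshold (limma, adjusted p = 0.131, unadjusted p = 0.000270). The call depended on the OE 5d pair, which takes no part in the comparison except through the shared spread. Without OE 5d replicate 1, or without replicate 2, the adjusted p was 0.00465 at the same log2 fold change of 4.32, and with the 4 arrays of both 0 d groups alone it was 0.0109. The lower OE 0d array read 904 and the higher WT 0d array 83.1.

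In WT plants PDF1.2 rose between 0 d and 5 d, by 10.7-fold (log2 fold change 3.42, 95% confidence interval 1.80 to 5.03, limma, adjusted p = 0.00770). Its call was lost without WT 0d replicate 2, which held the lowest value (2.62, adjusted p = 0.0617), without WT 5d replicate 2 (3.29, adjusted p = 0.0603) and with values under 32 set to 32 (3.30, adjusted p = 0.0810). In OE plants the log2 fold change between 0 d and 5 d was -0.61 (95% confidence interval -2.22 to 1.01, limma, adjusted p = 0.659). It was -1.72 without OE 5d replicate 1 (adjusted p = 0.0379) and 0.50 without OE 5d replicate 2, so that its sign turned on which OE 5d array was kept.

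At 5 d the genotypes overlapped in PDF1.2, with a log2 difference of 0.29 and a 95% confidence interval of -1.32 to 1.91 (limma, adjusted p = 0.877). The interaction asks whether the change from 0 d to 5 d differed between OE and WT plants. It was -4.02 on the log2 scale for PDF1.2 (SE 0.99, 95% confidence interval -6.31 to -1.74) and did not pass the threshold with all 8 arrays (limma, adjusted p = 0.174). Without OE 5d replicate 1 it was -5.13, and without OE 5d replicate 2 it was -2.91. Each such fit leaves 1 array in OE 5d and takes the widest pair out of the shared spread. Passing the threshold there is not read as a result about a gene.

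PDF1.2b (At2g26020, chromosome 2) encodes a near-identical defensin. Its intensity was 196 and 98.8 in WT 0d, 1189 and 1051 in OE 0d, 699.5 and 1119 in WT 5d, and 1440.0 and 482 in OE 5d. The same pair of arrays was lowest, and OE 5d replicate 2 was again the lowest of the 6 others. The suffix _x of this probe set marks that some of its probes can match other transcripts, and the RefSeq annotation (TAIR10.1) places PDF1.3 next to PDF1.2b and PDF1.2c next to PDF1.2. The probe set of PDF1.2 carries no such suffix, and the probe sequences were not examined. The signals of PDF1.2, PDF1.2b and these relatives may be shared, so the 2 probe sets are not treated as independent measurements of 2 genes.

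Over the 8 arrays, the log2 intensities of PDF1.2 and PDF1.2b had a Pearson correlation of 0.99, given as a description of arrays that fall into 4 groups. PDF1.2b was 8.03 times as high in OE 0d as in WT 0d (log2 fold change 3.01, 95% confidence interval 1.82 to 4.19, limma, adjusted p = 0.158). As for PDF1.2, that adjusted p went to 0.00755 without either OE 5d array. In WT plants PDF1.2b rose by 6.35-fold from 0 d to 5 d (log2 fold change 2.67, 95% confidence interval 1.48 to 3.85, limma, adjusted p = 0.00590). This call was lost without WT 0d replicate 2 (2.17, adjusted p = 0.0520), without WT 5d replicate 2 (2.33, adjusted p = 0.0570) and with values under 32 set to 32 (adjusted p = 0.0697).

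The log2 fold change of PDF1.2b was -0.42 in OE 5d vs OE 0d (95% confidence interval -1.61 to 0.76, limma, adjusted p = 0.677), and 0.37 without OE 5d replicate 2. It was -0.09 in OE 5d vs WT 5d (95% confidence interval -1.27 to 1.096, limma, adjusted p = 0.951), and its sign turned without OE 5d replicate 2 (0.70) or WT 5d replicate 2 (0.25). The interaction of PDF1.2b was -3.09 (95% confidence interval -4.77 to -1.42, limma, adjusted p = 0.164), and it was -3.88 without OE 5d replicate 1 (adjusted p = 0.0172) and -2.30 without OE 5d replicate 2 (adjusted p = 0.0164). In both defensin probe sets the interaction was negative with either OE 5d array left out.

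Replicates of the defensin genes were far apart in some groups. The PDF1.2 replicates of OE 5d differed by 4.66-fold, a gap reached by 0.365% of probe sets in that pair, and those of WT 0d by 3.03-fold, reached by 0.0791%. The OE 0d replicates differed by 1.11-fold and the WT 5d replicates by 1.19-fold. Replicate 1 was the higher array in WT 0d, OE 0d and OE 5d, and replicate 2 in WT 5d.

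THI2.1 (At1g72260, chromosome 1) encodes a thionin, a small antimicrobial peptide known to be induced by jasmonate, and it did not follow the defensin genes. Its intensity was 70.6 and 13.4 in WT 0d, 43.5 and 159 in OE 0d, 9.54 and 9.84 in WT 5d, and 312 and 56.8 in OE 5d. Both WT 5d arrays were the lowest of the 8, whereas PDF1.2 was high in that group. The replicates differed by 5.25-fold in WT 0d, 3.65-fold in OE 0d and 5.50-fold in OE 5d, and the WT 0d and OE 0d arrays overlapped.

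The group means of THI2.1 were 42.0 ± 40.4 (SD, n = 2) for WT 0d, 101 ± 81.3 for OE 0d, 9.69 ± 0.21 for WT 5d and 184 ± 181 for OE 5d. At 5 d THI2.1 was 13.7 times as high in OE as in WT plants, with no overlap between the arrays, but the difference did not pass the threshold (log2 fold change 3.78, 95% confidence interval 1.51 to 6.05, limma, adjusted p = 0.189). Without OE 5d replicate 2 it was 5.01, and without OE 5d replicate 1 it was 2.55. Both WT 5d values were dim, and the log2 fold change was 2.06 (adjusted p = 0.674) with values under 32 set to 32.

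The other THI2.1 comparisons had wide intervals. The log2 fold change was 1.43 in OE 0d vs WT 0d (95% confidence interval -0.84 to 3.70, limma, adjusted p = 0.768). With WT 0d replicate 1 or 2 left out it was 2.63 or 0.23, and with OE 0d replicate 1 or 2 left out it was 2.36 or 0.50. In WT plants between 0 d and 5 d it was -1.67 (95% confidence interval -3.94 to 0.60, limma, adjusted p = 0.260), and although the arrays did not overlap it was -0.47 without WT 0d replicate 1, -2.87 without WT 0d replicate 2 and -0.57 with values under 32 set to 32. In OE plants it was 0.68 (-1.59 to 2.95), with a negative sign without OE 0d replicate 1 (-0.25) or OE 5d replicate 1 (-0.55), and the interaction was 2.35 (-0.86 to 5.56, limma, adjusted p = 0.468), of opposite sign to that of PDF1.2.

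EIN3 (At3g20770, chromosome 3), the transcription factor at the end of the ethylene pathway, overlapped between genotypes and read higher at 5 d. Its intensity was 320 and 279 in WT 0d, 309 and 308 in OE 0d, 511 and 462 in WT 5d, and 379 and 464 in OE 5d. All 4 arrays at 0 d lay below all 4 at 5 d, and the genotypes overlapped at each time. EIN3 protein is known to be controlled mainly by its stability, which these arrays did not measure.

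The mean intensity of EIN3 was 299.7 ± 29.1 (SD, n = 2) for WT 0d, 308 ± 0.92 for OE 0d, 486 ± 34.5 for WT 5d and 422 ± 60.4 for OE 5d. In WT plants EIN3 rose by 1.62-fold (log2 fold change 0.70, 95% confidence interval 0.34 to 1.06, limma, adjusted p = 0.0106). The call was lost without WT 0d replicate 2 (0.60, adjusted p = 0.0773) or without WT 5d replicate 1 (0.63, adjusted p = 0.0654). In OE plants the log2 fold change was 0.44 (95% confidence interval 0.09 to 0.80, limma, adjusted p = 0.102). It was 0.30 with only replicate 1 of OE 5d kept and 0.59 with only replicate 2 kept.

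Between the genotypes, the log2 fold change of EIN3 was 0.04 at 0 d (95% confidence interval -0.31 to 0.40, limma, adjusted p = 0.978) and -0.21 at 5 d (-0.57 to 0.14, limma, adjusted p = 0.531). The interaction was -0.26 (95% confidence interval -0.76 to 0.25, limma, adjusted p = 0.620). In OE 0d vs WT 0d, then, PDF1.2 differed by 4.32 on the log2 scale and EIN3 by 0.04.

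MYC3 (At5g46760, chromosome 5) and MYC4 (At4g17880, chromosome 4) encode bHLH factors that bind JAZ repressor proteins and act with MYC2. The intensity of MYC3 was 42.4 and 41.9 in WT 0d, 52.5 and 48.5 in OE 0d, 66.6 and 54.0 in WT 5d, and 53.3 and 45.0 in OE 5d. MYC3 was lowest in WT 0d and highest in WT 5d, and OE 5d overlapped with OE 0d. The whole range of MYC3 over the 8 arrays was 1.59-fold, against 49.2-fold for PDF1.2 and 14.6-fold for PDF1.2b.

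In WT plants MYC3 rose by 1.42-fold between 0 d and 5 d (log2 fold change 0.51, 95% confidence interval 0.14 to 0.87, limma, adjusted p = 0.0426). This call was lost without any 1 of the 4 WT arrays (adjusted p from 0.0512 to 0.215), without either OE 0d array (0.0750), with values under 32 set to 32 (0.0816) and with a trended robust variance (0.0637). MYC3 differed from WT by 0.26 in OE 0d (95% confidence interval -0.10 to 0.62, limma, adjusted p = 0.733) and by -0.29 in OE 5d (-0.66 to 0.07, limma, adjusted p = 0.401). The log2 fold change in OE 5d vs OE 0d was -0.04 (-0.41 to 0.32, limma, adjusted p = 0.903), and the interaction was -0.55 (-1.07 to -0.04, limma, adjusted p = 0.307, unadjusted p = 0.0388).

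MYC4 was dim, with all 8 arrays under 32. Its intensity was 27.7 and 29.3 in WT 0d, 27.6 and 30.6 in OE 0d, 29.5 and 24.7 in WT 5d, and 26.0 and 18.1 in OE 5d. OE 5d replicate 2 was the dimmest, and each group overlapped with its neighbour in the order of the means. Background was not measured here, so how much of a signal this dim is specific to MYC4 is not known.

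No comparison of MYC4 passed the threshold. Its log2 fold change was 0.03 in OE 0d vs WT 0d (95% confidence interval -0.42 to 0.47, limma, adjusted p = 0.989) and -0.31 in OE 5d vs WT 5d (-0.76 to 0.13, limma, adjusted p = 0.462). It was -0.08 in WT 5d vs WT 0d (-0.53 to 0.37, limma, adjusted p = 0.818) and -0.42 in OE 5d vs OE 0d (-0.87 to 0.03, limma, adjusted p = 0.210). The value in OE 5d vs OE 0d was -0.16 with only replicate 1 of OE 5d kept and -0.68 with only replicate 2 kept. The interaction was -0.34 (-0.97 to 0.29, limma, adjusted p = 0.603).

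**Figure D2:**
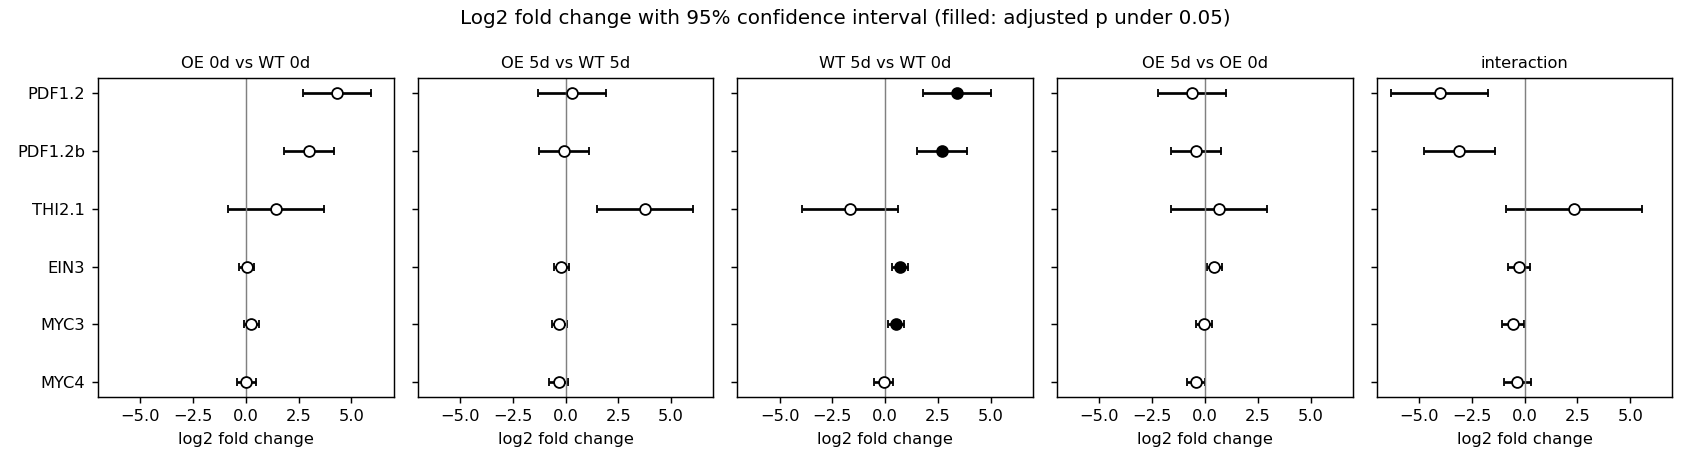
Log2 fold change (points) with its 95% confidence interval (bars) of the 6 genes in the 4 comparisons and the interaction, from 1 limma fit to 8 arrays, with filled points where the adjusted p was under 0.05. PDF1.2, PDF1.2b, EIN3 and MYC3 passed in WT 5d vs WT 0d and none passed elsewhere, and the intervals of THI2.1 are the widest.

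The counts over the 6 genes were as follows in OE 0d vs WT 0d. No gene passed the adjusted threshold in either direction, where 0.0528% of all probe sets were called higher and 0.0264% lower. At the threshold of the study's methods, a fold change above 2 or below 0.5 at an unadjusted p below 0.05, PDF1.2 and PDF1.2b were higher and none lower, against backgrounds of 0.435% and 0.317%. Between the pairs of arrays, PDF1.2, PDF1.2b and MYC3 were higher without overlap and none lower, against 23.1% and 24.2% of all probe sets. With 2 arrays against 2, separate pairs were common on the whole array.

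In OE 5d vs WT 5d no gene passed the adjusted threshold, with 0.0484% of probe sets called higher and 0.0% lower. At the study's threshold THI2.1 was higher and none lower, against 1.31% and 0.725%. Without overlap, THI2.1 was higher and MYC3 lower, against 19.6% and 23.0%. At an unadjusted p under 0.05, 1 of the 6 genes differed in OE 5d vs WT 5d (THI2.1), where 15.9% of all probe sets did, and 2 in OE 0d vs WT 0d (PDF1.2 and PDF1.2b), where 8.41% did. The median log2 fold change of the 6 genes was 0.85 in OE 0d vs WT 0d and -0.15 in OE 5d vs WT 5d, beside -0.00522 and -0.00417 over all probe sets.

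In WT 5d vs WT 0d, 4 of the 6 genes (PDF1.2, PDF1.2b, EIN3 and MYC3) were called higher and none lower, against 15.7% higher and 14.8% lower among all probe sets. PDF1.2 and PDF1.2b may share signal and are not treated as independent, which holds for every count and median of the 6 genes. At the study's threshold only the 2 defensin genes were higher and none lower, against 7.38% and 8.1%. The same 4 genes were higher without overlap and THI2.1 was lower without overlap, against 33.0% and 32.6%. The median log2 fold change of the 6 genes was 0.60, beside 0.01 over all probe sets.

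In OE 5d vs OE 0d, none of the 6 genes passed in either direction, against 7.06% of probe sets called higher and 6.53% lower. None passed at the study's threshold, against 3.87% and 2.43%. EIN3 was higher and MYC4 lower without overlap, against 26.1% and 27.6%. For the interaction none of the 6 was called, against 0.0308% higher and 0.0% lower, and at the study's threshold PDF1.2 and PDF1.2b were lower and none higher, against 1.81% and 3.12%. At an unadjusted p under 0.05 there was 1 gene in OE 5d vs OE 0d (EIN3), where 27.9% of all probe sets were under it, and 3 in the interaction (PDF1.2, PDF1.2b and MYC3), where 14.8% were. The comparisons of OE 0d and of WT 5d with WT 0d share the WT 0d arrays, and the 2 values of PDF1.2 in them, 4.32 and 3.42, rest in part on the same low pair.

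The defensin genes were set against the MYC regulator genes on each array, as the mean log2 difference of PDF1.2 and PDF1.2b from WT 0d, and the same of MYC3 and MYC4. This sets outputs of one branch against regulators of the other, since THI2.1 was the only one of 7 listed jasmonate outputs outside the defensin list with a named probe set. In OE 0d the defensin genes were 3.74 and 3.58 above the WT 0d mean on replicates 1 and 2, and the MYC genes 0.13 and 0.15. In WT 5d the defensin genes were 2.81 and 3.27 above it and the MYC genes 0.35 and 0.07. In OE 5d the defensin genes were 4.09 and 2.19 above it, and the MYC genes were at 0.10 and -0.28.

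The WT 0d arrays themselves lay at 0.65 and -0.65 for the defensin genes and at -0.02 and 0.02 for the MYC genes. The defensin difference minus the MYC difference was 3.61 and 3.43 on the OE 0d arrays, 2.46 and 3.20 on the WT 5d arrays, 3.99 and 2.48 on the OE 5d arrays, and 0.66 and -0.66 on the WT 0d arrays. All 6 arrays outside WT 0d thus had defensin genes at least 2.19 above the WT 0d mean on the log2 scale, while the mean of MYC3 and MYC4 lay between -0.28 and 0.35. This covers only part of the MYC branch. MYC2 and VSP1, which the paper lists as upregulated in OE plants under normal conditions, are not in it. These are descriptions, with no test, of genes chosen by name with earlier results of these data known. MYC4 was under 32 on all 8 arrays, so its narrow range says little, and MYC3 alone lay between 0.09 and 0.66 above the WT 0d mean on those 6 arrays. With MYC3 alone as the MYC gene, the mean difference was 3.40 in OE 0d, 2.53 for WT 5d and 2.93 for OE 5d.

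THI2.1 itself lay at 0.50 and 2.36 in OE 0d, at -1.69 and -1.65 in WT 5d and at 3.34 and 0.88 in OE 5d, a wider range than that of the MYC regulators. With THI2.1 counted among the MYC genes, the mean difference was 3.09 in OE 0d and 3.46 for WT 5d, and that of OE 5d moved by less than the spread between its arrays. With THI2.1 counted among the defensin genes, the mean difference was 2.77 instead of 3.52 in OE 0d and 1.26 instead of 2.83 in WT 5d.

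**Figure D3:**
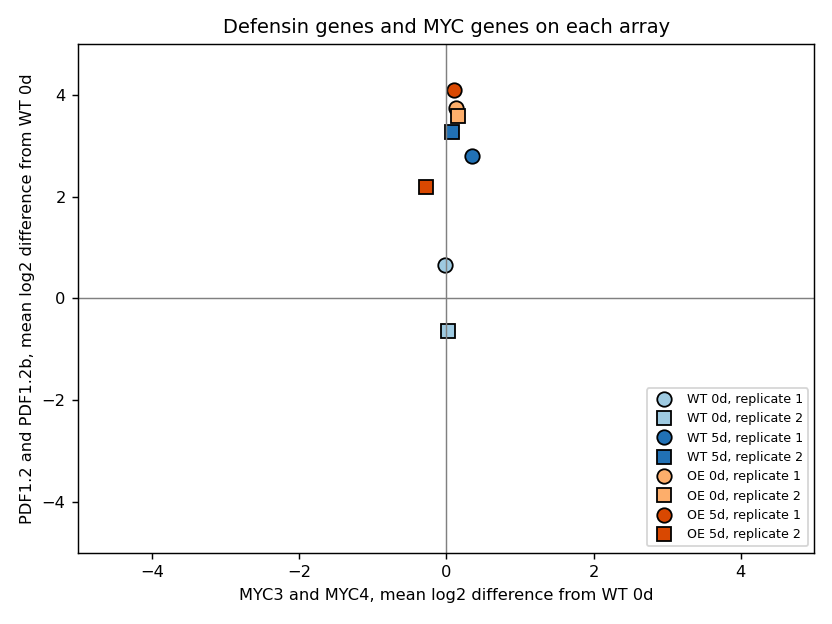
Mean log2 difference from WT 0d of PDF1.2 and PDF1.2b (vertical axis) against that of MYC3 and MYC4 (horizontal axis, same scale) on each of the 8 arrays, with circles for replicate 1 and squares for replicate 2. The arrays spread from -0.65 to 4.09 on the defensin axis and from -0.28 to 0.35 on the MYC axis.

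The order of the groups differed among the 6 genes. PDF1.2 and PDF1.2b had WT 0d lowest and apart. Of the 3 groups above it, the wide OE 5d pair overlapped with both others, while WT 5d lay wholly below OE 0d for PDF1.2 and overlapped with it for PDF1.2b. THI2.1 had WT 5d lowest and apart, followed by WT 0d, OE 0d and OE 5d, which overlapped with their neighbours. EIN3 had both 0 d groups below both 5 d groups, MYC3 had WT 0d lowest and WT 5d highest with both OE groups between, and MYC4 had OE 5d lowest with all neighbours overlapping.

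Over the 8 arrays, as a description, log2 PDF1.2 correlated with MYC3 at 0.64, with THI2.1 at 0.41, with EIN3 at 0.34 and with MYC4 at -0.06. EIN3 correlated with MYC3 at 0.63 and with MYC4 at -0.51, MYC3 with MYC4 at 0.20, and THI2.1 with MYC3 at -0.26. The arrays share 4 groups, so each of these correlations reflects few independent points. MYC3 and MYC4 thus had a lower correlation than PDF1.2 and PDF1.2b, in a range of 1.59- and 1.69-fold. MYC4 was under 32 on all 8 arrays, and the 2 defensin probe sets may share signal. How alike the genes themselves are was therefore not shown.

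**Figure D4:**
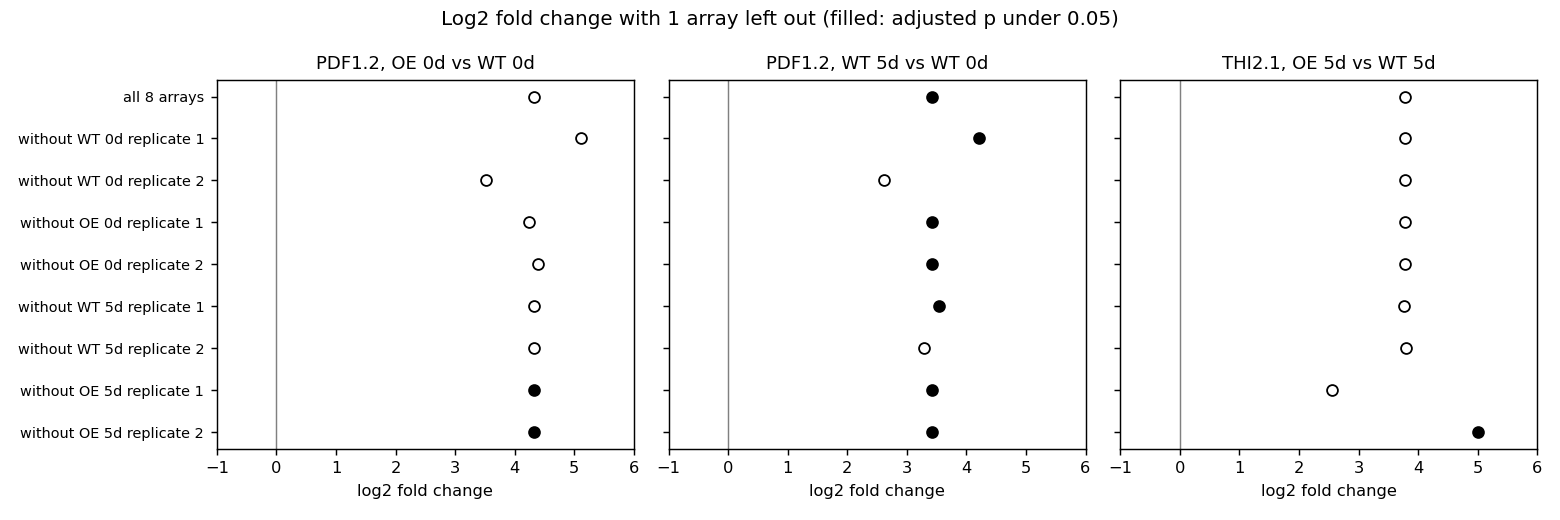
Log2 fold change of PDF1.2 (OE 0d vs WT 0d, then WT 5d vs WT 0d) and of THI2.1 (OE 5d vs WT 5d), with all 8 arrays and with each array left out in turn, filled where the adjusted p was under 0.05. PDF1.2 in OE 0d vs WT 0d ran from 3.52 to 5.12 and was filled only where an OE 5d array was left out, at 4.32. THI2.1 ran from 2.55 to 5.01. Without an OE 5d array that group holds 1 array and the shared spread loses its widest pair. Filled points there are not read as calls.

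Of 54 genes listed for the pathway, 10 had a named probe set here, and these include the 6 genes above. None of 11 JAZ repressor genes and 1 of 6 ERF regulator genes was among them, and the probe sets of MYC2, VSP2 and ERF1 were not analysed here. In WT 5d vs WT 0d, 5 of the 10 were called higher and none lower, against 15.7% and 14.8% of all probe sets. Of these 5, 4 are the members counted above. The other, ORA59, had a probe set named only by the study's supplementary list of changed genes. Its call was thus largely fixed in advance, and the count of 5 is not comparable with the shares. Without WT 0d replicate 2 the 4 members among the 5 all lost their call, and some lost it without WT 5d replicate 1 or 2. In OE 5d vs OE 0d, 1 of the 10 was called higher, against 7.06%, and this was again ORA59, with the same limit. No gene of the list was called in the other 2 comparisons or the interaction. An unadjusted p under 0.05 was reached there by 3 genes at 0 d, 2 at 5 d and 4 in the interaction. The shares over all probe sets were 8.41%, 15.9% and 14.8%. The median log2 fold change of the 10 was 0.24 between the genotypes at 0 d and 0.435 between 0 d and 5 d in WT plants.

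The gene of the list that was called higher in both genotypes between 0 d and 5 d was ORA59, the ERF factor that joins jasmonate and ethylene signals at the PDF1.2 promoter. Its probe set was named through the study's supplementary list of changed genes, so neither its call nor its direction is independent evidence. Its intensity was 51.6 and 47.0 in WT 0d, 69.5 and 47.5 in OE 0d, 120 and 121 in WT 5d, and 135 and 110 in OE 5d. All arrays at 5 d were above 110 and all arrays at 0 d below 70, with overlap between the genotypes at each time.

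Between 0 d and 5 d ORA59 rose by 1.29 on the log2 scale in WT plants (SE 0.20, limma, adjusted p = 0.00245) and by 1.09 in OE plants (limma, adjusted p = 0.0122). The OE call was lost with the 4 OE arrays alone (adjusted p = 0.0855), with values under 32 set to 32 (0.0717) and without OE 0d replicate 2 (0.81, adjusted p = 0.0926). In OE 0d vs WT 0d, where PDF1.2 differed by 4.32, ORA59 differed by 0.22 (limma, adjusted p = 0.845). In OE 5d vs WT 5d it differed by 0.02 (limma, adjusted p = 0.977).

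RTE1, a regulator of the ethylene receptor ETR1, had intensities of 155 and 169 in WT 0d, 165 and 155 in OE 0d, 151 and 136 in WT 5d, and 247 and 187 in OE 5d. Both OE 5d arrays were the highest of the 8. The log2 fold change in OE 5d vs WT 5d was 0.59 and did not pass with all arrays (limma, adjusted p = 0.205). It was 0.79 with only replicate 1 of OE 5d kept and 0.38 with only replicate 2 kept. ETP2, an F-box protein that targets EIN2, fell in WT 5d vs WT 0d (37.1 and 30.3 against 20.3 and 16.8), with a log2 fold change of -0.86 (limma, adjusted p = 0.0397). That change of ETP2 was -0.11 with values under 32 set to 32 (adjusted p = 0.956), and the call was also lost without any 1 of the 4 WT arrays (adjusted p from 0.0859 to 0.209) or either OE 0d array (0.0725).

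Relatives of the 6 genes were then taken by family name, 14 in all, of which 8 were other plant defensins. None of these 8 defensins was called in any of the 5 contrasts (limma), and at an unadjusted p under 0.05 there were 2 in WT 5d vs WT 0d, against 39.7% of all probe sets, and 1 in each of the others, against 8.41% to 27.9%. The median log2 fold change of the 8 in WT 5d vs WT 0d was -0.02, beside 0.01 over all probe sets. PDF1.1, PDF2.1, PDF2.4, PDF2.5 and PDF2.6 were under 32 on all 8 arrays. PDF1.4 had intensities of 43.4 and 23.3 in WT 0d, 70.2 and 58.0 in OE 0d, 40.3 and 41.6 in WT 5d, and 31.2 and 74.4 in OE 5d. It was higher without overlap in OE 0d than in WT 0d, as PDF1.2 was, at a log2 fold change of 1.01 (limma, adjusted p = 0.564).

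PDF2.2 had intensities of 988 and 890.5 in WT 0d, 474 and 669 in OE 0d, 349.8 and 301 in WT 5d, and 2838 and 680.5 in OE 5d. It was lowest in WT 5d and highest on OE 5d replicate 1, the array on which PDF1.2, PDF1.2b and THI2.1 were also highest. Its log2 fold change was 2.098 in OE 5d vs WT 5d (limma, adjusted p = 0.190). It was 3.13 with only replicate 1 of OE 5d kept and 1.07 with only replicate 2 kept. In WT 5d vs WT 0d it was -1.53 (limma, adjusted p = 0.0700), and the adjusted p was 0.000262 with the 4 WT arrays alone. PDF2.3 was at 698 and 749 in WT 0d, 729.9 and 575.5 in OE 0d, 424 and 424 in WT 5d, and 783 and 369 in OE 5d, and its -0.77 in WT 5d vs WT 0d did not pass (limma, adjusted p = 0.102; 0.00345 with the 4 WT arrays alone).

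THI2.2, a thionin gene related to THI2.1, fell between 0 d and 5 d in both genotypes. Its intensity was 119 and 169.8 in WT 0d, 117 and 96.6 in OE 0d, 23.9 and 29.3 in WT 5d, and 33.2 and 34.6 in OE 5d. The arrays of 0 d and 5 d were far apart in both genotypes, unlike those of THI2.1 in OE plants. The log2 fold change was -2.43 in WT plants (limma, adjusted p = 0.000629) and -1.65 in OE plants (limma, adjusted p = 0.00383), and the interaction of THI2.2 was 0.78 (limma, adjusted p = 0.277).

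ATMYC1, a bHLH gene whose name is close to those of MYC3 and MYC4 but which is not one of the jasmonate MYC factors, fell in WT plants between 0 d and 5 d. Its intensity was 89.5 and 70.4 in WT 0d, 45.4 and 48.0 in OE 0d, 21.9 and 15.9 in WT 5d, and 43.1 and 19.1 in OE 5d. Its log2 fold change was -2.09 in WT 5d vs WT 0d (limma, adjusted p = 0.00335), opposite in sign to that of MYC3. ORA47, an ERF-type factor that acts on jasmonate biosynthesis genes, was between 14.4 and 47.8 on the 8 arrays and passed in no contrast.

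**Figure D5:**
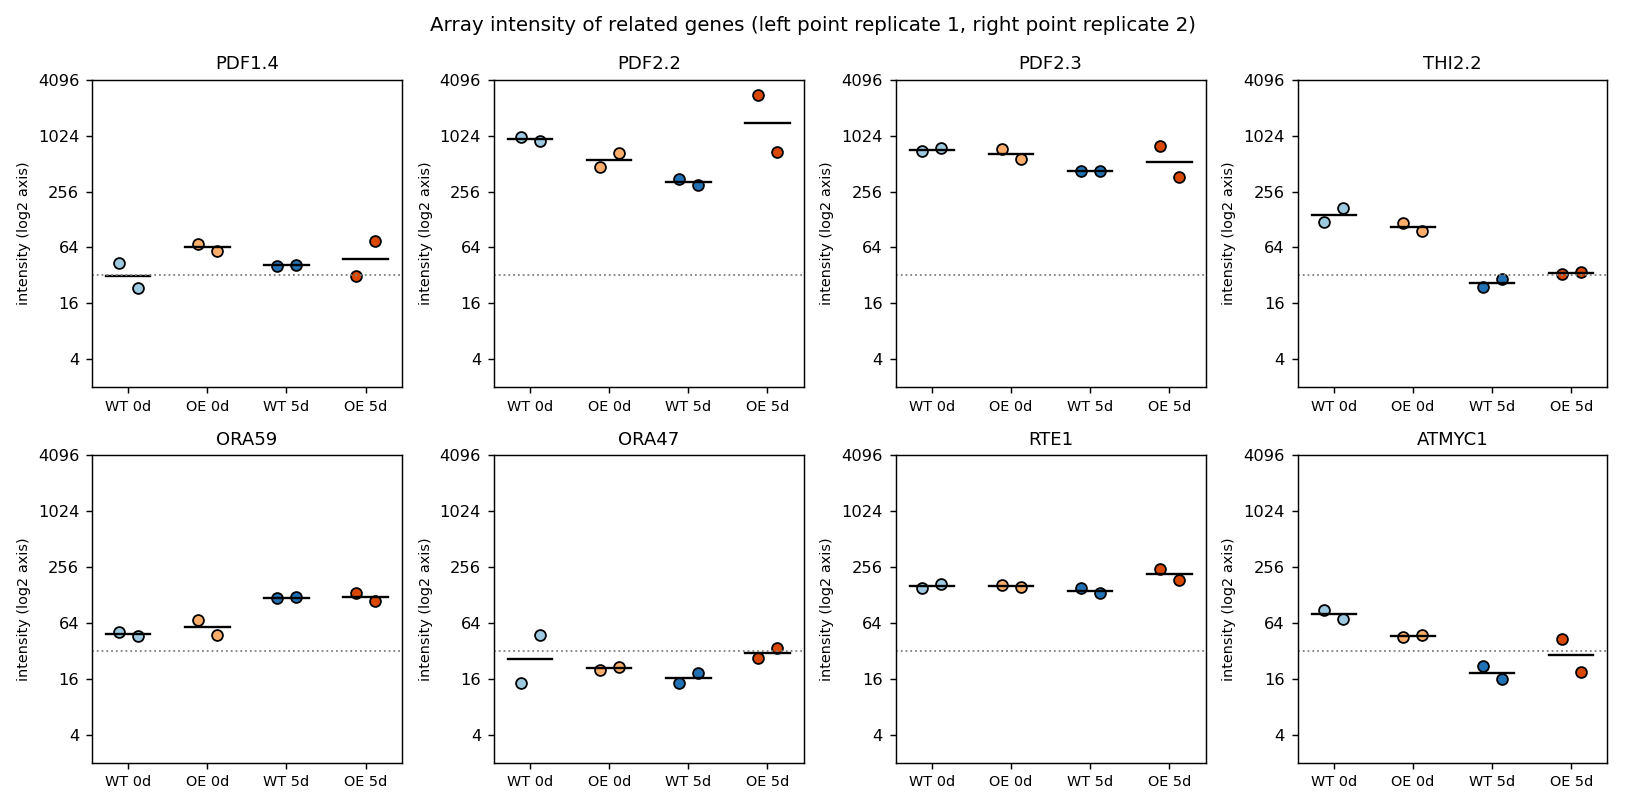
Array intensity (log2 axis) of 8 related genes in the 4 groups, with replicate 1 left, replicate 2 right, a bar at the geometric mean and a dotted line at 32. ORA59 was above 110 on all arrays at 5 d and below 70 at 0 d, THI2.2 fell with time in both genotypes, and PDF2.2 reached 2838 on OE 5d replicate 1.

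Among 5647 probe sets with 1 named gene and an intensity of at least 64 on an array, those most like each of the 6 genes were found by the Pearson correlation of log2 intensity over the 8 arrays. For PDF1.2 these were At1g52220 (0.956), At4g01150 (0.948) and At5g13410 (0.946), of which RefSeq lists the first and second as CURT1C and CURT1A, proteins of thylakoid membrane curvature. At1g52220 ran only from 2151 to 2643, so its likeness to PDF1.2 is one of relative pattern over the arrays and not of the size of the changes. For PDF1.2b they were At3g44620 (0.948), At1g52220 (0.942) and At1g18170 (0.938).

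For THI2.1 the most alike were At5g02550 (0.924), At5g14370 (0.919) and At3g27420 (0.910). For EIN3 they were GAMMA-VPE (At4g32940, 0.991), which encodes a vacuolar processing enzyme, At1g48430 (0.991) and At1g51890 (0.990). GAMMA-VPE was at 853 and 595 in WT 0d, 834 and 692 in OE 0d, 3140 and 2880 in WT 5d, and 1631 and 2852 in OE 5d. It was picked for its likeness to EIN3 over these arrays. That its OE 5d replicate 1 also lay closer to 0 d than replicate 2 is therefore no second observation. For MYC3 they were At4g13360 (0.934), At4g38250 (0.925) and At2g21560 (0.924), and for MYC4 At5g65990 (0.948), At2g19680 (0.946) and At1g79990 (0.921). The likeness describes 8 arrays that fall into 4 groups, and nothing is drawn from it about shared function or control.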

How the data were processed

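Leaf RNA was measured on 8 ATH1 GeneChips, 2 for each of 4 groups taken from the sample titles. A commercial service labelled the RNA with biotin, hybridized and scanned it. The authors deposited linear intensities, with a single value for each probe set on each array. The software that summarized and normalized them is not given in the sources used here, and the sources name different RNA kits. Whether the replicates were separate plants is not stated, and p-values then measure only the spread between these samples.

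The 64 array controls among the 22810 probe sets were removed, and no value lay under the floor of 1 set for log2. Log2 intensities of 8 arrays were fitted with limma 3.58.1 (R 4.3.3, lmFit and eBayes) with 4 group means and 4 residual degrees of freedom. The Benjamini-Hochberg adjustment ran over 22746 probe sets, and a call means an adjusted p under 0.05. The study's threshold was applied to the same fit, since its methods name no test. Python 3.11.15, matplotlib 3.10.9, numpy 2.4.6 and pandas 2.3.3 were used for tables and figures. Array number limits the precision, and background was not measured.

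Gene names came from the platform annotation with RefSeq (TAIR10.1), and 1 (ORA59) from the study's supplementary list. The members and lists were chosen with earlier results of these data known. The rule named all 6 members, list genes that passed or up to 4 with the largest change, and the 3 probe sets most like each member. The 14 relatives were added later by family name, and other choices of MYC genes after seeing the data. Alternatives were quantile normalization, median centring, the replicate number as a block, a fit to 4 arrays per comparison, values under 32 set to 32, leaving out dim probe sets, a trended robust eBayes, array weights, the study's threshold and each array left out. No sequences were used. The authors' own fold changes were not used.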

Additional observations from a re-analysis of the deposited data

Results flagged for a closer look

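Each gene below was singled out because every array of OE differed from WT one way at 0 d and the other way at 5 d, or because every array moved with time in opposite directions in WT and OE. The test of the difference itself is the interaction in limma, and it passed the threshold for none of them with all 8 arrays. Groups of 2 arrays are too small for a check of single outlying samples. The share of all probe sets with either pattern was not counted, so these genes are not shown to be unusual. Separation without overlap in a single comparison was common, at 19.6% to 33.0% of all probe sets in each direction.

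MYC3 was above WT in OE 0d and below WT in OE 5d, with an interaction of -0.55 on the log2 scale (adjusted p = 0.307). PDF2.2, a defensin, was lower in OE than WT at 0 d and higher at 5 d, and it went down with time in WT and up in OE, with an interaction of 2.83 (adjusted p = 0.204). The interaction of PDF2.2 was 1.80 without OE 5d replicate 1 (adjusted p = 0.0336) and 3.86 without OE 5d replicate 2 (adjusted p = 0.000816).

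THI2.2 was below WT in OE 0d and above WT in OE 5d, with an interaction of 0.78 (adjusted p = 0.277). RTE1 went down with time in WT and up in OE, with an interaction of 0.60 (adjusted p = 0.299). That interaction was 0.80 with only replicate 1 of OE 5d kept and 0.40 with only replicate 2 kept. The mesophyll marker RCA went up with time in WT and down in OE, and was above WT in OE 0d and below it in OE 5d, with an interaction of -0.39 (adjusted p = 0.414). The root marker PYK10 was below WT in OE 0d and above it in OE 5d, with an interaction of 2.02 (adjusted p = 0.164).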

How the results depend on the processing

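Counting each gene, comparison and alternative, 383 fold changes kept their direction and their side of the threshold under the alternatives that kept all arrays, 19 passed newly and 10 no longer passed. The 5 of MYC4 were exactly 0 with values under 32 set to 32, since all its values are under it. With 1 array left out the numbers were 327, 25 and 19, and 13 changed sign. In OE 0d vs WT 0d, 2 members were called higher with the 4 arrays alone, 2 with array weights and 2 at the study's threshold, against 0 in the fit reported, and the list counts were 2, 2 and 3. Of all 22746 probe sets, 98, 138 and 99 were called higher in these settings, against 12 in the fit reported. At the study's threshold 1 member and 1 list gene were higher in OE 5d vs WT 5d, 2 members and 3 list genes in WT 5d vs WT 0d, and 2 members and 2 list genes were lower in the interaction. The shares over all probe sets were 1.31%, 7.38% and 1.81%. With values under 32 set to 32, 1 member and 2 list genes were higher in WT 5d vs WT 0d. The list count in OE 5d vs OE 0d was 0 with that floor and 0 with the 4 arrays alone. Over all probe sets 624 and 225 were called higher there. With THI2.1 counted among the defensin genes, the defensin minus MYC difference was 2.77 in OE 0d and 1.26 in WT 5d, and counted among the MYC genes, a choice made after seeing the data, it gave 3.09 and 3.46.

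With 1 array left out, each fit left 1 array in a group, so calls of members and list genes are not counted here. In WT 5d vs WT 0d, the called members all lost their call without WT 0d replicate 2. MYC3 also lost its call without each other WT array. Changes of sign with 1 array left out came in values near 0 or in OE 5d. PDF1.2 ranged from -1.72 to 0.50 in OE 5d vs OE 0d and from -0.82 to 1.403 in OE 5d vs WT 5d, and PDF1.2b from -1.21 to 0.37 and from -0.88 to 0.70. THI2.1 ranged from -0.55 to 1.91 in OE 5d vs OE 0d, EIN3 from -0.0541 to 0.14 in OE 0d vs WT 0d, MYC3 from -0.17 to 0.0772 in OE 5d vs OE 0d, and MYC4 from -0.0486 to 0.10 in OE 0d vs WT 0d and from -0.21 to 0.0479 in WT 5d vs WT 0d. The cause of these changes was not tested.

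The labels do not say that a replicate number marks a shared plant, batch or day, so the numbers were not treated as pairs. The deviations of same-numbered arrays correlated between groups at 0.0136 to 0.223, all above 0 and 3 of the 6 over 0.1. What these arrays share was not tested. With the replicate number as a block, 4 members were still called higher in WT 5d vs WT 0d. Over all probe sets 3560 were called higher with it, and the block changed no count of members or list genes. The adjusted p of PDF1.2 in OE 0d vs WT 0d was 0.0561 with the block and 0.131 without it (limma).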
